A study of Zea mays with 9 samples.

Results

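The transcriptome of maize primary root apexes fed with ammonium was compared directly with that of root apexes fed with nitrate. Every identifier of the expression table that reached at least 1 RPKM, a read count scaled by transcript length and library size, in one of the 2 conditions entered the comparison, which gave 21660 of 45260 identifiers (47.9%). The quantity reported is log2(RPKM ammonium / RPKM nitrate), so that a positive value means more transcript after ammonium. An identifier was called higher or lower when this ratio lay beyond 0.58 in either direction, the fold threshold that the study applied to its own comparisons with nitrogen-deprived roots.

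Both groups were seedlings of the inbred line B73, germinated for 3 days, kept without nitrogen for a day and then grown for 24 h in nutrient solution with 1 mM KNO3 or 1 mM NH4Cl. The groups therefore differed in the counter-ion, potassium or chloride, as well as in the nitrogen form, and the 2 differences cannot be told apart. Another group stayed without nitrogen (-N), and its values are given only beside those of the other groups. Each condition had 3 biological replicates of pooled apexes of 1.5 cm, made from 20 seedlings according to the methods and from 10 to 15 according to the record, and polyA RNA was sequenced.

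The table holds 1 value per identifier and condition, estimated by the authors over the 3 replicates, with no value per replicate. Every value below is the authors' value, the read depth behind it cannot be read from RPKM, and no difference could be set against the spread between replicates. A call therefore says how large a difference was, with no statement on significance. In RNA from whole apexes, fewer cells of a type and less RNA per cell cannot be told apart. The tissue was not checked against markers, since the files do not pair most identifiers with names; names come from the lists of genes given by the study.

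Nitrate enters root cells through proton-coupled transporters, is reduced to nitrite by nitrate reductase in the cytosol and then to ammonium by nitrite reductase in the plastid, which draws its electrons from ferredoxin. Ammonium enters through transporters of the AMT family and is built into glutamine by glutamine synthetase without prior reduction. Ammonium uptake is linked to acidification of the medium around the root and nitrate uptake to its alkalinization, and plasma membrane proton pumps, potassium transporters and organic acid efflux take part in the balance of charge.

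Between ammonium and nitrate, 6410 of the 21660 identifiers (29.6%) lay beyond the threshold. Of these, 3354 (15.5% of those compared) were higher after ammonium and 3056 (14.1%) were lower. The higher group made up 52.3% of the calls (51.1 to 53.5 as the 95% Wilson interval, for the counting error of identifiers only). Which group was larger depended on the scaling of the columns, since the share fell to 49.9% when both columns were scaled to the same total and to 44.4% when they were scaled to the same upper quartile. The median log2 ratio over the 21505 identifiers above 0 in both conditions was -0.03, and the 5th and 95th percentiles were -0.91 and 1.28, so the distribution reached further on the ammonium side.

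The larger differences were more often in favour of ammonium. Among the higher identifiers, 1648 lay between 0.58 and 1, 1383 between 1 and 2.5 and 251 above 2.5, and 72 were listed at 0 after nitrate. Among the lower identifiers, 2137 lay between 0.58 and 1, 762 between 1 and 2.5 and 74 beyond 2.5, and 83 were listed at 0 after ammonium. Thus 69.9% of the lower calls but 49.1% of the higher calls lay within a log2 ratio of 1. With the threshold at 1, 1706 identifiers were higher and 919 lower, so that the higher share was 65.0%.

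The share called also varied with expression level. It was 41.4% among identifiers whose larger value lay between 1 and 5 RPKM, 26.2% between 5 and 20 RPKM, 22.6% between 20 and 100 RPKM and 33.2% from 100 RPKM upwards. Between 20 and 100 RPKM, 14.2% were higher and 8.33% lower, whereas between 1 and 5 RPKM 18.8% were higher and 22.6% lower. At the edge of the minimum, Zm00001d014314 was just inside with 1.00051 RPKM after nitrate and 0.68096 after ammonium, and Zm00001d047786 was just outside with 0.99992 RPKM after ammonium and 0.45873 after nitrate.

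**Figure D1:**
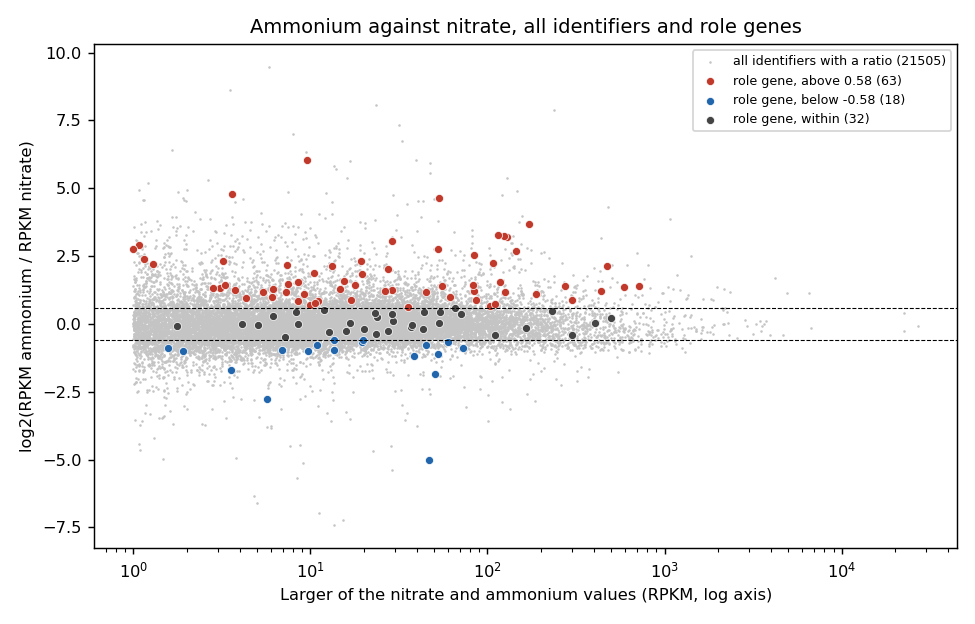
Log2(RPKM ammonium / RPKM nitrate) of the 21505 identifiers above 0 in both conditions (grey) against the larger of the 2 values in RPKM on a log axis, with the 113 genes of the 21 functional roles described in the text in red (63 above 0.58), blue (18 below -0.58) or dark grey (32 within). The dashed lines mark 0.58 and -0.58, and points reach further above 0 than below it.

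Set beside the -N column, the calls in the 2 directions did not look alike. Of the 3266 higher identifiers above 0 in all conditions, -N lay below both nitrogen forms in 44.4%, between them and nearer to nitrate in 33.3%, between them and nearer to ammonium in 14.8% and above both in 7.41%. Of the 2957 lower identifiers, -N lay between the forms and nearer to nitrate in 40.4%, between them and nearer to ammonium in 21.4%, above both in 20.9% and below both in 17.3%. On the log2 scale -N was nearer to nitrate than to ammonium in 77.7% of the higher and 61.2% of the lower identifiers. A single value per condition carries no measure of error, so these positions are descriptions.

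To describe the comparison by function, 115 genes from the study's lists were grouped in 21 roles. The study drew those lists from genes that differed from -N in these same libraries, so the direction of a list is not independent evidence. Of the 113 role genes that reached 1 RPKM, 63 were higher after ammonium, 18 lower and 32 within the threshold, and their median log2 ratio was 0.86 against -0.03 over all identifiers compared.

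**Figure D2:**
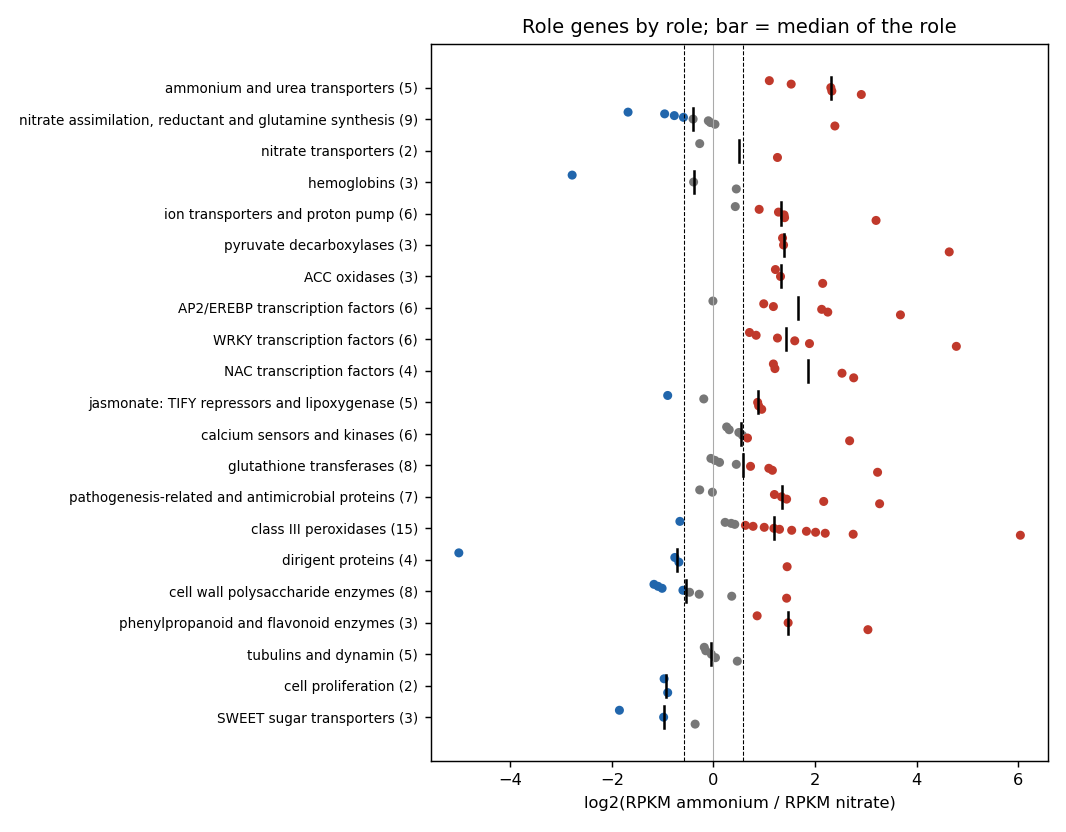
Log2(RPKM ammonium / RPKM nitrate) of the 113 role genes, one point per gene, with the number of genes in brackets after each role. Red points lie above 0.58, blue points below -0.58 and grey points within, and the black bar is the median of the role. All members of the ammonium and urea transporters, pyruvate decarboxylases, ACC oxidases, WRKY and NAC factors and phenylpropanoid enzymes lie above 0.58, and both cell proliferation genes lie below -0.58.

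The 5 transporters of ammonium and urea in the lists were all higher after ammonium, beside 15.5% of all identifiers. The median of their log2 ratios was 2.31. The study listed Zm00001d016771 as raised by ammonium alone and the other transporters as lowered by nitrate. The choice thus bears on this count and on the orders below. ZmAMT1;1a (Zm00001d025831), an ammonium transporter of the AMT1 type, was at 19.4 RPKM after ammonium, 3.91 after nitrate and 8.72 in -N, a log2 ratio of 2.31. Nitrate thus lay below -N and ammonium above it. Of the 3 genes annotated as ammonium transporter 2, Zm00001d034782 was at 8.49 RPKM after ammonium, 2.95 after nitrate and 8.57 in -N (1.53), and Zm00001d017249 at 3.23, 0.645 and 2.81 RPKM (2.33). In both, ammonium and -N were close and nitrate was the low condition. The third, Zm00001d016771, was at 9.26 RPKM after ammonium, 4.32 after nitrate and 3.90 in -N (1.10), so here nitrate and -N were close. The urea-proton symporter DUR3 (Zm00001d037242), which takes up urea from the soil solution, showed the same order as ZmAMT1;1a at low levels, with 1.08, 0.144 and 0.666 RPKM after ammonium, after nitrate and in -N (2.91).

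Of the 9 genes for nitrate and nitrite reduction, reductant supply and glutamine synthesis, 4 were lower after ammonium and 1 was higher. The other 4 lay within the threshold. Over all identifiers, 14.1% were lower and 15.5% higher. All 9 genes were lowest in -N. The study listed them as raised by 1 or both nitrogen forms, so the choice bears on that place of -N. The entry enzymes of the pathway were at like levels with both forms. NRa (Zm00001d049995), an NADH-dependent nitrate reductase, was at 1.69 RPKM after ammonium and 1.77 after nitrate against 0.291 in -N. Nitrite reductase (Zm00001d018161) was at 16.7 RPKM after ammonium, 16.3 after nitrate and 0.820 in -N. The exception was the other gene annotated as nitrate reductase, Zm00001d017025, with 1.15 RPKM after ammonium, 0.219 after nitrate and 0.109 in -N (2.39).

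The suppliers of electrons and carbon lay mostly on the nitrate side. Ferredoxin VI (Zm00001d038291) was at 34.6 RPKM after ammonium and 37.2 after nitrate (-0.10), and the root isozyme of ferredoxin-NADP reductase (Zm00001d034345), which reduces ferredoxin with NADPH, was at 83.7 and 110.2 RPKM (-0.40). Neither passed the threshold. Another ferredoxin, Zm00001d021141, was at 9.06 RPKM after ammonium and 13.6 after nitrate (-0.59, a call lost with the median log2 ratio set to 0), and the ferredoxin-like Zm00001d006119 was at 6.39 and 10.9 RPKM (-0.77). The glucose-6-phosphate translocator Zm00001d021653, which carries substrate for NADPH production into the plastid, was at 1.11 RPKM after ammonium, 3.55 after nitrate and 0.996 in -N (-1.68). A plastid glutamine synthetase, Zm00001d026501, was at 6.99, 13.6 and 4.93 RPKM (-0.96), so for these last genes ammonium lay nearer to -N than to nitrate. The study listed the translocator and the synthetase as raised by nitrate alone, so the choice bears on this order.

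The nitrate transporters of the NRT1/PTR family differed from each other. ZmNRT1a (Zm00001d029932) was at 22.7 RPKM after ammonium, 27.4 after nitrate and 17.8 in -N (-0.27), and ZmNRT1b (Zm00001d036941) at 3.78, 1.58 and 1.29 RPKM (1.26). Only ZmNRT1b passed the threshold, and it was the higher one after ammonium. Among the hemoglobins, which scavenge nitric oxide in plant cells, hemoglobin 1 (Zm00001d048020) was abundant with both forms, at 228.8 RPKM after ammonium and 300.5 after nitrate against 33.1 in -N (-0.39). Hemoglobin 2 (Zm00001d038718) was at 0.830 RPKM after ammonium, 5.72 after nitrate and 0.313 in -N (-2.78), the lowest ratio of the nitrogen genes. The truncated hemoglobin HbO (Zm00001d046472) was at 54 and 39.5 RPKM (0.45).

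**Figure D3:**
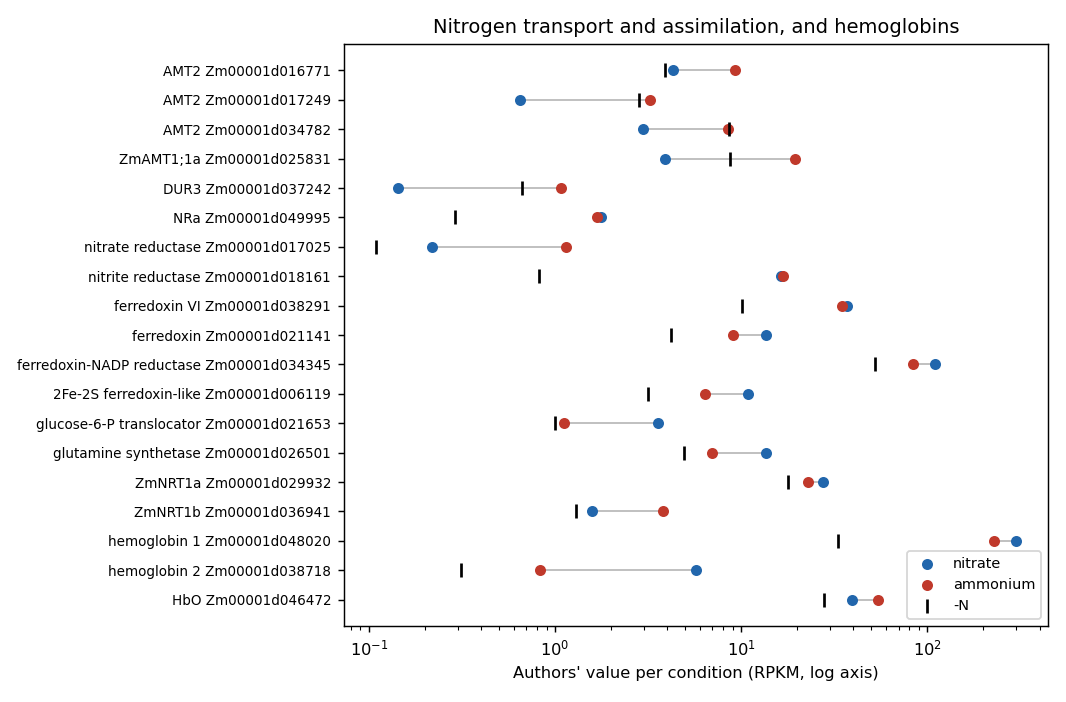
RPKM on a log axis of 19 genes of nitrogen transport and assimilation and hemoglobins after nitrate (blue) and ammonium (red), joined by a line, with -N as a black tick; each mark is the authors' single value for a condition. For ZmAMT1;1a and DUR3 the tick lies between the points, and for NRa and nitrite reductase the 2 points overlap and the tick lies far below.

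Ion transporters of the lists formed the next group that lay on the ammonium side, with 5 of 6 genes higher, beside 15.5% of all identifiers. The study listed all 6 as lowered by nitrate, so the choice bears on this count and on the place of nitrate below -N. The plasma membrane proton ATPase Zm00001d002006, which builds the proton gradient used for uptake, was at 718.1 RPKM after ammonium, 271.9 after nitrate and 506.2 in -N (1.4). Potassium transporters Zm00001d003861 and Zm00001d022485 were at 55.7 against 21.2 RPKM (1.39) and 14.7 against 6.02 RPKM (1.28), while another, Zm00001d020325, was at 44.0 against 32.5 RPKM (0.43). Their -N values were 57.8, 10.6 and 49.2 RPKM, so nitrate was the lowest of the 3 conditions in each. The nitrate solution held the nitrogen as a potassium salt and the ammonium solution as a chloride salt, and the part of the counter-ion in these values was not tested. The calcium-transporting ATPase Zm00001d023258, a pump that removes calcium from the cytosol, was at 17 and 9.10 RPKM (0.90).

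The steepest difference among ion transporters was that of the multidrug and toxic compound extrusion transporter Zm00001d035115, an efflux protein annotated as conferring aluminum tolerance, a trait that in maize rests on release of citrate. It was at 129.6 RPKM after ammonium, 14.1 after nitrate and 49.1 in -N, a log2 ratio of 3.20, so the nitrogen forms lay on opposite sides of -N. Over the 9 genes that the study lists under cation transmembrane transport, 8 were higher after ammonium and none lower, with a median of 1.4. Of all identifiers, 15.5% were higher and 14.1% lower. The study listed the 9 genes because they were lowered by nitrate, so the choice bears on this count.

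All 3 ACC oxidase genes and 5 of the 6 measured AP2/EREBP factors of the lists were higher after ammonium, beside 15.5% of all identifiers. The study listed the genes called higher here as raised by ammonium alone, so the choice bears on these counts. ACC oxidase makes ethylene from 1-aminocyclopropane-1-carboxylate, and its gene Zm00001d011208 was at 439.0 RPKM after ammonium, 188.0 after nitrate and 115.8 in -N (1.22). The genes annotated as ACC oxidase 15, Zm00001d024853 and Zm00001d024843, were at 13.2 against 2.97 RPKM (2.15) and 3.09 against 1.23 RPKM (1.32).

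AP2/EREBP factors bind DNA and include ethylene response factors and DRE-binding proteins. Of the 7 in the lists, 6 reached 1 RPKM, with a median of 1.65. The ERF-like gene Zm00001d022461 was at 170.7 RPKM after ammonium, 13.3 after nitrate and 10.2 in -N (3.68). The gene of RAP2-2 (Zm00001d040651), a factor known in Arabidopsis for hypoxia responses, was at 107.8, 22.7 and 17.1 RPKM (2.25), and Zm00001d009103 at 474.0, 108.2 and 79.8 RPKM (2.13). In all of these the nitrate value stood much closer to -N than to ammonium. The study listed these genes as raised by ammonium alone, so this order comes from that choice. The gene of DRE-binding protein 1 (Zm00001d032295) did not differ by the threshold, with 8.50 RPKM after ammonium and 8.55 after nitrate, and Zm00001d026271, at 0.728 and 0.0320 RPKM, stayed under the minimum.

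All 6 WRKY factors and all 4 NAC factors of the lists were higher after ammonium, beside 15.5% of all identifiers. Apart from the WRKY gene Zm00001d038843, the study listed them as raised by ammonium alone, so the choice bears on these counts. WRKY factors are a family known for roles in defence, and NAC factors one with roles in stress and senescence. Among WRKY genes the ratio was highest for Zm00001d049173, at 3.60 RPKM after ammonium, 0.131 after nitrate and 0.135 in -N (4.78). The next were WRKY71 (Zm00001d053746), at 10.5 against 2.85 RPKM (1.89), and Zm00001d010617, at 15.5 against 5.11 RPKM (1.60), and the lowest was Zm00001d038843, at 10.0 against 6.15 RPKM (0.71). The medians of the listed WRKY and NAC genes were 1.43 and 1.87. NAC genes were more abundant, with Zm00001d012527 at 52.3 RPKM after ammonium, 7.70 after nitrate and 4.04 in -N (2.76) and NAC domain-containing protein 2 (Zm00001d019207) at 83.7, 14.5 and 14.7 RPKM (2.53).

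The jasmonate genes were mixed. TIFY 10B proteins are repressors of jasmonate signalling whose transcripts the hormone itself induces. Of the 4 genes, Zm00001d022139 was at 300.9 RPKM after ammonium and 164.6 after nitrate (0.87), Zm00001d006860 at 86.7 and 46.7 RPKM (0.89) and Zm00001d027900 at 4.33 and 2.24 RPKM (0.95). The fourth, Zm00001d005813, was lower, at 0.850 and 1.58 RPKM (-0.90), a low level at which a pseudocount of 1 RPKM removed the call. Lipoxygenase 12 (Zm00001d041204), of the family of enzymes that oxidise fatty acids to precursors of jasmonate, was at 17.5 and 20 RPKM (-0.19).

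Of the 6 calcium sensors and calcium-linked kinases, 2 were higher and none lower, beside 15.5% and 14.1% of all identifiers. The study listed both higher genes as raised by ammonium alone, so the choice bears on this count. Calcineurin B-like 5 (Zm00001d044389), a calcium sensor, was at 144.2 RPKM after ammonium, 22.5 after nitrate and 25.7 in -N (2.68), and calcium dependent protein kinase 5 (Zm00001d002540) at 104.0 and 65.3 RPKM (0.67). Calcineurin B-like 10 (Zm00001d044285) stood at the threshold, with 65.2 and 44.0 RPKM (0.57).

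Pyruvate decarboxylase is the first enzyme of ethanol fermentation. The 3 genes for it in the lists were higher after ammonium, beside 15.5% of all identifiers. The study listed them as raised by ammonium alone, so the choice bears on this count. The most abundant, Zm00001d028759, was at 589.4 RPKM after ammonium, 230.4 after nitrate and 224.7 in -N (1.36), and pyruvate decarboxylase 1 (Zm00001d010588) at 274.5, 105.1 and 73.7 RPKM (1.38). The third gene, Zm00001d008651, went from 2.14 RPKM after nitrate and 4.90 in -N to 53.3 after ammonium (4.64). The authors' counting divided reads that map to several places among the genes, so single values within families of similar sequence, such as these genes, the ACC oxidase 15 genes and the tubulins, are less certain.

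Detoxification and defence genes were higher after ammonium or within the threshold, and none of these 15 was lower. Over all identifiers, 15.5% were higher and 14.1% lower. The study listed the genes called higher here as raised by ammonium alone and the others as raised by both forms. The choice thus bears on these counts. Of 8 glutathione transferases, which attach glutathione to reactive compounds, 4 were higher, led by glutathione transferase 31 (Zm00001d027557), at 123.4 RPKM after ammonium, 13.2 after nitrate and 10.5 in -N (3.23). Glutathione transferases 5 (Zm00001d034356) and 6 (Zm00001d018809) were at 188.5 against 88.6 RPKM (1.09) and 126.0 against 56.3 RPKM (1.16). Others stood level, such as GSTU6 (Zm00001d043795), at 53.6 and 52.6 RPKM (0.03). Of 7 pathogenesis-related and antimicrobial genes, 5 were higher. Here the largest ratio was that of the cysteine-rich protein LCR70 (Zm00001d021843), of the plant defensin type, at 114.9 RPKM after ammonium, 11.9 after nitrate and 7.86 in -N (3.27). Pathogenesis-related protein 10 (Zm00001d028815) was at 83.6 and 36.3 RPKM (1.20), and a gene with a thaumatin domain (Zm00001d046261) at 7.40 and 1.64 RPKM (2.17). Pathogenesis-related protein 3 (Zm00001d048947) and the hevein-like gene Zm00001d048950 did not differ by the threshold, with 13.2 against 15.9 RPKM (-0.27) and 4.08 against 4.14 RPKM (-0.02).

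The wider lists that the study gives for genes raised by ammonium alone had the same direction throughout. All 36 genes under response to hormone were higher after ammonium than after nitrate (median 1.23), as were all 68 measured genes of 69 under response to biotic stimulus (median 1.38) and 22 of 23 under response to water deprivation (median 1.38). Of all identifiers, 15.5% were higher. The study chose the genes of these lists as raised over -N by ammonium alone, so the choice bears directly on these counts. Among the largest ratios were those of CYP81A1 (Zm00001d012322), a cytochrome P450, at 9.41 RPKM after ammonium and 0.117 after nitrate (6.33), of the fatty acid alpha-dioxygenase Zm00001d035854, which makes oxylipins, at 39.6 and 0.595 RPKM (6.06), and of the glycosyltransferase Zm00001d021168, at 13.6 and 0.242 RPKM (5.81). At the low end of the biotic stimulus list, actin-depolymerizing factor 5 (Zm00001d047942) was at 43.7 and 28.9 RPKM (0.60), a call lost with the columns scaled to the same total or upper quartile. Phospholipase D7 (Zm00001d029397) and lipid phosphate phosphatase 2 (Zm00001d011638), enzymes that make and remove phosphatidic acid, were at 20.2 against 1.73 RPKM (3.55) and 101.7 against 14.8 RPKM (2.78), with -N at 4.81 and 34.9 RPKM.

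The genes listed as raised by both forms under response to hormone lay on both sides. Of 81 genes, 9 were higher after ammonium, 10 lower and 62 within the threshold, and the median was -0.01. Of all identifiers, 15.5% were higher and 14.1% lower. Besides the TIFY genes, the UDP-glycosyltransferase 73B3 gene Zm00001d044106 was at 2.93 RPKM after ammonium and 1.58 after nitrate (0.89). SWEET15a (Zm00001d050577), of the family of sugar transporters that let sugars out of cells, was at 0.961 and 1.90 RPKM (-0.98), a call that a pseudocount of 1 RPKM removed. With that pseudocount, 7 of the 81 genes were higher and 2 lower, and with a minimum of 5 RPKM 6 were higher and 4 lower.

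Class III peroxidases are secreted enzymes that use hydrogen peroxide and can both cross-link and loosen walls. Those of the lists were mostly higher after ammonium but in the majority below -N. Of 16 genes 15 reached 1 RPKM, of which 11 were higher and 1 lower, beside 15.5% and 14.1% of all identifiers. The median of the 15 was 1.19. In 11 of the 15, -N was the highest of the conditions. The study listed these 11 as lowered by both nitrogen forms, so their place below -N comes from that choice. Zm00001d022283 was at 27.6 RPKM after ammonium, 6.84 after nitrate and 62.7 in -N (2.01), and its neighbours by identifier Zm00001d022280 and Zm00001d022281 were at 19.6, 5.50 and 39.7 RPKM (1.83) and at 6.07, 3.04 and 9.54 RPKM (1.00). The order was thus the same in all 3 genes. The most abundant peroxidase, Zm00001d040364, was at 498.5, 424.8 and 889.5 RPKM (0.23), so its nitrogen forms lay close together. Peroxidases listed by the study among genes raised by ammonium had another order. Zm00001d010218 was at 9.60 RPKM after ammonium, 0.146 after nitrate and 0.240 in -N (6.04), and peroxidase 16 (Zm00001d014608) at 117.4, 40.4 and 20.5 RPKM (1.54). Zm00001d052336 was the only one of the 15 called lower, at 38.0 RPKM after ammonium, 60.2 after nitrate and 40.0 in -N (-0.66).

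Genes of the apoplast, the wall space outside the plasma membrane, lay on the nitrate side. Of the 9 genes that the study lists there as raised by nitrate, 8 were lower after ammonium, beside 14.1% of all identifiers. The median of the 9 was -0.76, and the choice bears on this count. The largest difference was that of the dirigent protein gene Zm00001d052585, at 1.45 RPKM after ammonium, 46.7 after nitrate and 1.53 in -N (-5.01). Dirigent proteins guide the coupling of phenoxy radicals in lignan and lignin formation. For this gene ammonium and -N were nearly equal and nitrate stood alone. The other dirigent genes differed less, with Zm00001d005472 at 26.5 and 44.8 RPKM (-0.76) and Zm00001d047775 at 12.2 and 19.6 RPKM (-0.68), and Zm00001d048814 was higher after ammonium, at 3.30 and 1.21 RPKM (1.45).

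Of 8 enzymes acting on wall polysaccharides, 4 were lower after ammonium, 1 was higher and 3 were within the threshold. Over all identifiers, 14.1% were lower and 15.5% higher. The study listed the 4 lower genes as raised by nitrate alone and the higher gene as raised by ammonium alone. The choice thus bears on these counts. The beta-galactosidase Zm00001d046357, which trims galactose from wall polymers, was at 24.6 RPKM after ammonium, 52.4 after nitrate and 32.8 in -N (-1.09). The endo-1,3-beta-glucosidase Zm00001d043361 was at 17.2, 38.7 and 24.2 RPKM (-1.17) and the auxin-induced beta-glucosidase Zm00001d048669 at 4.82, 9.67 and 5.14 RPKM (-1.01). In these genes ammonium was the lowest and nitrate the highest condition, and the place of nitrate comes from that choice. Pectinesterase Zm00001d032992, which removes methyl groups from pectin, was the opposite case, at 83.3 RPKM after ammonium, 30.7 after nitrate and 35.2 in -N (1.44). The xyloglucan endotransglucosylase/hydrolases 14 (Zm00001d009309) and 23 (Zm00001d014613), which cut and rejoin xyloglucan, were at 10.6 against 12.8 RPKM (-0.28) and 29.1 against 22.6 RPKM (0.36).

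**Figure D4:**
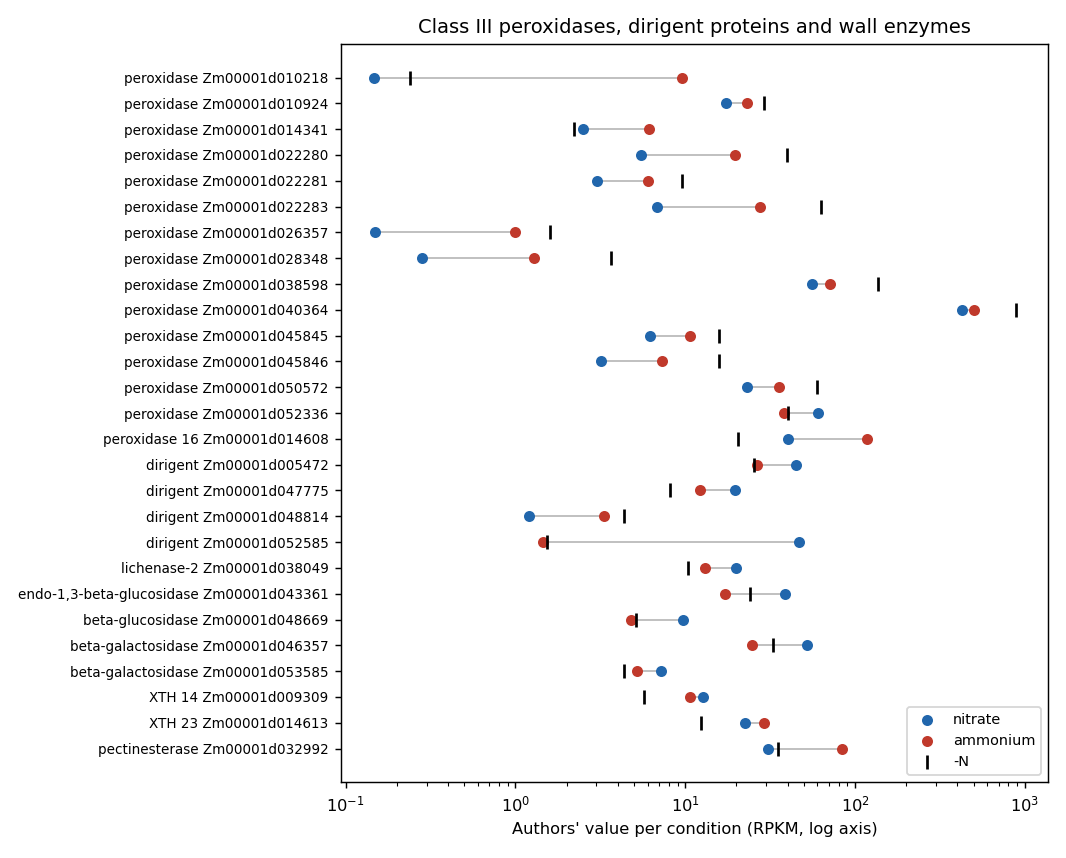
RPKM on a log axis of 15 class III peroxidases, 4 dirigent genes and 8 wall polysaccharide enzymes after nitrate (blue) and ammonium (red), joined by a line, with -N as a black tick; each mark is the authors' single value for a condition. For 11 peroxidases the tick lies to the right of both points, and the longest line with nitrate on the right is that of the dirigent gene Zm00001d052585.

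All 3 enzymes of phenylpropanoid and flavonoid synthesis in the lists were higher after ammonium, beside 15.5% of all identifiers. The study listed Zm00001d017279 and Zm00001d017077 as lowered by nitrate and Zm00001d009666 as raised by ammonium alone. Phenylalanine ammonia lyase 7 (Zm00001d017279), of the entry step of the pathway, was at 7.49 RPKM after ammonium, 2.71 after nitrate and 6.61 in -N (1.47), and the flavonoid 3'-hydroxylase red aleurone1 (Zm00001d017077) at 8.57, 4.71 and 10.6 RPKM (0.86). For both, nitrate was the low condition. Dihydroflavonol-4-reductase (Zm00001d009666), an enzyme of anthocyanin synthesis, was instead set apart by ammonium, at 29.0, 3.52 and 4.24 RPKM (3.04).

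The listed genes of growth showed both a group that did not differ and a group that did. The 4 tubulins and the dynamin-related gene were within the threshold, with log2 ratios from -0.18 to 0.47, and all 5 were highest in -N. The study listed these 5 as lowered by both nitrogen forms, so their place below -N comes from that choice. The tubulin alpha chain Zm00001d021891 was at 403.7 RPKM after ammonium, 392.2 after nitrate and 642.1 in -N (0.04). The cell proliferation genes of the lists were lower after ammonium and close to each other for nitrate and -N. The study listed them as lowered by ammonium alone, so this order comes from that choice. Proliferating cell nuclear antigen (Zm00001d018415), the sliding clamp of DNA replication, was at 39.1 RPKM after ammonium, 73 after nitrate and 78.3 in -N (-0.90), and the fasciata 1-like gene (Zm00001d012166), whose Arabidopsis counterpart is a subunit of chromatin assembly factor 1, at 3.52, 6.89 and 8.13 RPKM (-0.97). The SWEET sugar transporter Zm00001d015905 lay on opposite sides of -N, at 14 RPKM after ammonium, 50.5 after nitrate and 32.3 in -N (-1.85), and SWEET13a (Zm00001d023677) was at 18.2 and 23.4 RPKM (-0.36).

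Most of the steepest ratios belonged to identifiers that the files do not pair with names. Among gene models with at least 10 RPKM in one condition and above 0 in both, the highest was that of Zm00001d043574, at 23.6 RPKM after ammonium, 0.0889 after nitrate and 0.706 in -N (8.05), followed by Zm00001d051938 at 236.8, 1.01 and 6.4 RPKM (7.87). The lowest were those of Zm00001d037894, at 0.0796 RPKM after ammonium and 13.6 after nitrate and listed at 0 in -N (-7.42), and Zm00001d045022, at 0.103, 15.3 and 0.217 RPKM (-7.21). In the first pair -N was above nitrate and below ammonium, and in the second pair -N was close to ammonium.

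Identifiers outside the gene models differed by kind. Gene models numbered 21210 of those compared, of which 3264 (15.4%) were higher and 2862 (13.5%) lower. Small nucleolar RNAs (snoRNAs), which guide chemical changes of ribosomal RNA in the nucleolus, were lower after ammonium in 127 of 207 cases (61.4%) and higher in 45 (21.7%), with a median log2 ratio of -1.0 over the 149 above 0 in both conditions. The division of these identifiers by kind was made after the values of the whole class had been seen. The difference was larger among those more abundant in one of the conditions, a cut-off that a snoRNA could pass through nitrate alone. Of 119 snoRNAs with at least 20 RPKM in one condition, 84 were lower (70.6%, median -1.14), and of 38 with at least 100 RPKM, 33 were lower (86.8%, median -1.62). The median value of these 38 was 183 RPKM after nitrate and 79.6 after ammonium, so the rise with abundance is not independent of the cut-off. Over the 137 snoRNAs above 0 in all 3 conditions, the median log2 ratio to -N was -0.54 for ammonium and 0.50 for nitrate, and over the 38 most abundant it was -1.09 and 0.38.

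Examples came from several snoRNA families. The most abundant, a SNORD14 copy (ENSRNA049465410), was at 306.0 RPKM after ammonium, 632.0 after nitrate and 544.2 in -N (-1.05), and 11 of 12 SNORD14 identifiers were lower and none higher. All 9 snoZ103 identifiers were also lower, whereas of 12 copies of plant U3, which acts in cleavage of precursor ribosomal RNA, 4 were lower and none higher. Of the 32 snoRNA names with 3 or more identifiers, 21 had more lower than higher calls and 5 the reverse. Not every snoRNA followed, since a SNORD34 copy (ENSRNA049467581) was at 49.7 RPKM after ammonium, 2.03 after nitrate and 89.9 in -N (4.61). These RNAs are short and lack a polyA tail, and the libraries are labelled as polyA RNA, so how many reads stand behind each value is unknown, and the part of library preparation in the difference was not tested.

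Beside the 14.1% of all identifiers that were lower, spliceosomal small nuclear RNAs were higher in 18 and lower in 19 (29.7%) of 64 cases, with a median of -0.04. Ribosomal RNA identifiers were higher in 4 and lower in 18 (27.7%) of 65 cases, with a median of -0.11, and of the 31 with at least 5 RPKM 9 were lower and none higher. Together they held 8.87% of the RPKM total after ammonium and 9.17% after nitrate.

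MicroRNA genes with a zma-MIR name were lower after ammonium in 15 of 26 cases (57.7%, beside 14.1% of all identifiers) and higher in 5 (19.2%), and 5 of the 15 were listed at 0 after ammonium, at 7.06 RPKM or less after nitrate. MicroRNA precursors with other identifiers were lower in 9 and higher in 7 of 23 cases (median -0.22). RPKM at such loci comes from polyA RNA of the precursor and not from the mature microRNA. The MIR159, MIR164, MIR167 and MIR396 families each had genes on both sides. zma-MIR159a was at 62.9 RPKM after ammonium, 21.1 after nitrate and 28.7 in -N (1.58), and zma-MIR159f at 2.92, 11.8 and 0.566 RPKM (-2.02). zma-MIR160b, of a family that targets auxin response factors, was at 2.36 and 13.3 RPKM (-2.49), and zma-MIR164b, of a family that targets NAC factors, at 6.94 and 22.3 RPKM (-1.69). Another MIR164 gene was higher after ammonium at a low level, with 1.78 against 0.726 RPKM (1.30). The most abundant, zma-MIR171f, was level at 73 and 74.3 RPKM (-0.02), with 133.3 in -N. zma-MIR393a, whose family targets auxin receptors, stood at the threshold with 12.5 and 8.43 RPKM (0.57).

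Mitochondrial genes were mostly level. Of 42 mitochondrial identifiers, 4 were higher and 4 lower, with a median of 0.06, and the steepest with at least 10 RPKM was GRMZM5G834298, at 26.8 RPKM after ammonium, 3.64 after nitrate and 3.30 in -N (2.88). Of 8 plastid identifiers 4 were higher and none lower, all at 4.17 RPKM or less.

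**Figure D5:**
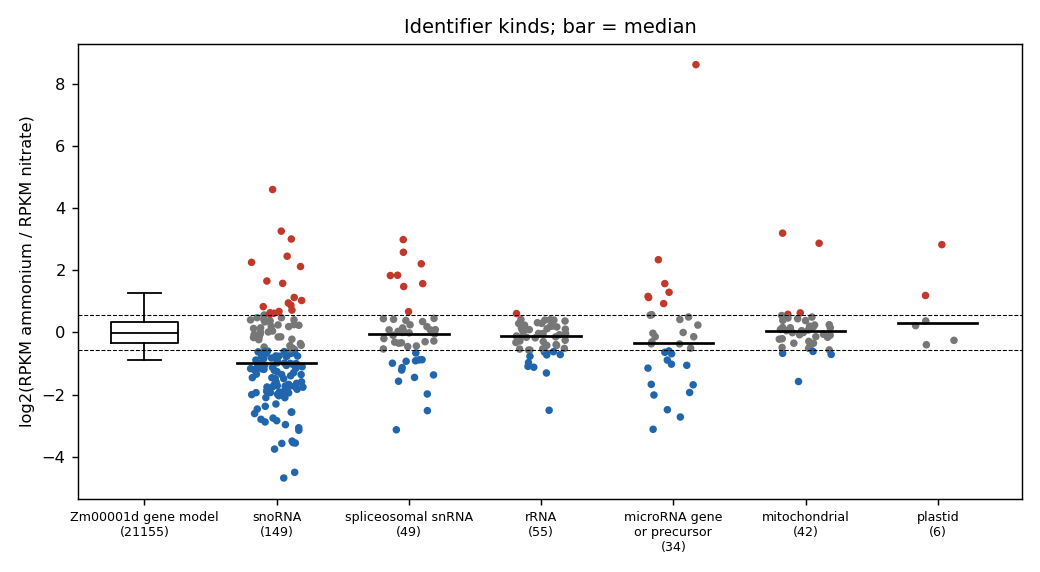
Log2(RPKM ammonium / RPKM nitrate) of identifiers above 0 in both conditions by kind, with their number in brackets. Gene models are drawn as a box (quartiles and median) with whiskers at the 5th and 95th percentiles, and the other kinds as one point per identifier, red above 0.58 and blue below -0.58, with the median as a black bar. The snoRNA bar lies at -1.0, and those of spliceosomal RNAs, ribosomal RNAs and mitochondrial genes lie between -0.11 and 0.06.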

How the data were processed

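RNA was sequenced from 3 replicates per condition (TruSeq, polyA RNA). Per the labels and methods, the authors trimmed reads with Trimmomatic 0.33, mapped them with TopHat2 2.0.13 to B73 RefGen_v4, removed alignments of mapping quality under 1 and ran Cuffdiff (Cufflinks 2.2.1) with multi-read correction and upper-quartile normalization. The deposited RPKM values are 1 estimate per identifier and condition, so values are relative to library size and length, and a shift in abundant RNAs can move all others. The table gives no value per replicate, so no test was made, and RPKM does not show the read depth.

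From these values log2 ratios were computed without a pseudocount, at a minimum of 1 RPKM. Identifiers at 0 in one condition were counted by direction and given no ratio. The rule allowed also the 5 largest RPKM differences each way, which are not shown. Named are the role genes, the 10 steepest gene models each way (of those without a name in the files, the first 2), up to 3 extremes per listed term and identifier class, the highest values listed at 0 in the other condition, and, chosen after their values were seen, the most abundant snoRNA and microRNA gene and the snoRNA families counted by name. The members, roles and lists were chosen with earlier results of these data known. No Zm00001d identifier matched the RefSeq gene table (0 matches), and no sequence is shown. Alternatives were a threshold of 1, pseudocounts of 0.1 and 1 RPKM, no minimum, a minimum of 5 RPKM, 3 other scalings and gene models alone. The counting was tested on simulated data. Calculations ran in Python 3.11.15 (pandas 2.3.3, numpy 2.4.6), with matplotlib 3.10.9 for the plots.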

Additional observations from a re-analysis of the deposited data

How the results depend on the processing

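No paired analysis was possible because the columns hold 1 value per condition and no replicates, and leaving out a replicate could not be run for the same reason. With a threshold of 1, 1706 identifiers were higher and 919 lower, the higher share was 65.0%, 7 role genes were lower, and 1632 gene models were higher and 768 lower. Without a minimum, 6822 identifiers were higher and 6847 lower (49.9% higher), of which 6676 and 6612 were gene models. With a minimum of 5 RPKM, 1799 identifiers were lower (56.2% higher), 1646 gene models were lower and 51 ENSRNA identifiers were higher. The higher share was 56.6% with a pseudocount of 1 RPKM, 55.5% with the median log2 ratio set to 0, 49.9% with the same column total and 44.4% with the same upper quartile, so the split between directions is not settled by these data, and the cause was not tested. Under these 3 scalings the median log2 ratio was 0.00, -0.05 and -0.09.

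No called log2 ratio of a named identifier changed sign, which these settings could not have brought about. A pseudocount, minimum or threshold cannot reverse a sign, and the scalings only moved the median log2 ratio from -0.03 to 0.00, -0.05 and -0.09. Of 377 identifiers with a ratio, 21 lost the call with a pseudocount of 1 RPKM, 62 with the threshold of 1 and at most 7 under a scaling, among them the peroxidase Zm00001d050572 (0.56) and lichenase-2 (Zm00001d038049, -0.58).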

Other observations

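The study chose the genes of its list of secondary metabolite biosynthesis as lowered by nitrate. All 9 were higher after ammonium than after nitrate (median log2 ratio 1.32). Of 12 measured genes listed under reactive oxygen species metabolism, chosen as lowered by both forms, 8 were higher and none lower (median 0.89). These 8 are class III peroxidases already counted above. Of all identifiers, 15.5% were higher and 14.1% lower. The acyltransferase-like gene Zm00001d024763 of the first list was at 137.2 RPKM after ammonium, 75.1 after nitrate and 142.2 in -N (0.87). In the apoplast list the mannitol dehydrogenase Zm00001d004443 was at 0.584 RPKM after ammonium, 2.80 after nitrate and 0.974 in -N (-2.26).

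The highest values listed at 0 in the other condition belonged to small non-coding RNAs. The snoRNA snoU31b (ENSRNA049479467) was at 60.3 RPKM after nitrate and 20.3 in -N and was listed at 0 after ammonium, and snoJ33 (ENSRNA049474364) was at 24.1 RPKM after ammonium and 11.4 in -N and was listed at 0 after nitrate. A copy of the plant signal recognition particle RNA, which takes part in protein targeting to the endoplasmic reticulum, ENSRNA049477077, was at 44 RPKM after ammonium, 26.7 after nitrate and 19.7 in -N (0.72). The enod40 RNA (ENSRNA049469775) was level between the nitrogen forms, at 575.4 RPKM after ammonium and 580.5 after nitrate (-0.01), with 372.9 in -N.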
